A study of Mus musculus with 32 samples.

Results

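Megakaryocyte/erythroid-biased multipotent progenitors (MPP2) were compared with myeloid-biased multipotent progenitors (MPP3) of young mice by RNA sequencing. The comparison rests on 4 of the 32 libraries of the series, 2 of Young MPP2 and 2 of Young MPP3, which were chosen by their labels alone. All cells were sorted from the bone marrow of female C57BL/6 mice with no labelled genetic change or treatment, aged 10 weeks (Young) or 20 months (Aged). Young MPP2 were negative for IL-7 receptor, lineage antigens and Flt3 and positive for Sca-1, c-Kit, CD34, CD48 and CD150. Young MPP3 were sorted by the same antigens except that CD150 was negative, so CD150 is the antigen that separates the fractions. Aged MPP2 and Aged MPP3 were sorted in the same manner from 20-month-old mice. Values are also given for Young hematopoietic stem cells (HSCs; CD150+, negative for CD34, CD48 and Flt3), Young MPP4 (CD34+, CD48+ and Flt3+, CD150-), and, among cells negative for Sca-1, Young granulocyte-macrophage progenitors (GMPs; CD34+ and positive for the Fcγ receptor) and Young megakaryocyte-erythrocyte progenitors (MEPs; negative for both). The study states that the marrow of each age was pooled and sorted in duplicate, and elsewhere calls the 2 samples biologically independent. The labels tie no library to particular mice. P-values therefore measure only the spread between duplicate libraries, which may be technical.

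Multipotent progenitors lie below HSCs in the hematopoietic hierarchy and still form every blood lineage, but they differ in the lineage they favor after transplantation. MPP2 are known for output of megakaryocytes and erythroid cells and MPP3 for output of granulocytes and macrophages. GATA1, with its partners FOG1 and GFI1B, drives the erythroid and megakaryocytic programs, whereas PU.1, C/EBPα and IRF8 drive the granulocytic and monocytic programs. Fractions defined by surface antigens are mixtures, and in bulk RNA a lower level can come from fewer cells of a type or from less RNA per cell, which cannot be told apart here.

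Total counts were 12460872 and 13222504 in Young MPP2 and 13489993 and 12183221 in Young MPP3, within the range of 11237384 to 17723245 over all 32 libraries. Levels are given as CPM, the count of a gene scaled to a common total per library. By counting error alone a count of 0 leaves room for 3 counts, which is 0.222 to 0.246 CPM in these 4 libraries. Of 24421 genes in the table, 14154 passed the filter on low counts and were tested. Differences are log2 fold changes of MPP2 minus MPP3 from the quasi-likelihood F-test of edgeR, given with their standard error (SE), and a gene was called at a Benjamini-Hochberg adjusted p under 0.01.

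The antigens of the gate were read at the RNA level as a check of the labels and are not findings. Slamf1, which encodes CD150, was measured at 18.5 and 19.0 CPM in Young MPP2 and at 2.08 and 1.72 CPM in Young MPP3. Kit did not pass the test, with 1198 and 1150 CPM in MPP2 against 1128 and 1162 CPM in MPP3. Flt3 RNA was present in both Flt3-negative gates, at 98.9 and 100 CPM in MPP2 and at 280 and 315 CPM in MPP3, and Cd34 was also higher in MPP3 (log2 fold change -0.55, a call lost in each fit without a library). The libraries thus followed their CD150 label, and the Flt3 and CD34 transcripts differed between gates that hold the same setting for these proteins.

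Promoters of 5 genes from both sides of the comparison are shown for the letters that hematopoietic factors read. They are the 250 bases before the RefSeq start of transcription in GRCm38.p6, written 5′ to 3′ on the strand of the gene, and they were picked after the matches were known. Gp5 (chr16:30310782-30311031, minus strand) encodes glycoprotein V of platelets and was higher in MPP2. Cpa3 (chr3:20242182-20242431, minus strand) and Mcpt4 (chr14:56062311-56062560, minus strand) encode proteases of mast cell granules and were higher in MPP3. In these 3 sequences capitals mark AGATAA or TGATAA on either strand, letters bound by GATA factors. Ccl3 (chr11:83649379-83649628, minus strand), a chemokine gene, and Wfdc17 (chr11:83703806-83704055, plus strand), a gene of a small secreted protein, were higher in MPP3, and capitals mark GAGGAA on either strand, letters bound by PU.1.
Gp5: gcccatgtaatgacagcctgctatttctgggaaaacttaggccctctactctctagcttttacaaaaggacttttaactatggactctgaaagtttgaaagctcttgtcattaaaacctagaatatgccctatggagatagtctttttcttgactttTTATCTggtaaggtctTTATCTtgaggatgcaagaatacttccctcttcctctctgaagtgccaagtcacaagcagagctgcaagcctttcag
Cpa3: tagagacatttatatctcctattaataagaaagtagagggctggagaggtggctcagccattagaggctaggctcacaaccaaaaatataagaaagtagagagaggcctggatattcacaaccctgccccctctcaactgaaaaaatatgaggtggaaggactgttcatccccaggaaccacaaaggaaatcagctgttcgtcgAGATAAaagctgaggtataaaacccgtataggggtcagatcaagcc
Mcpt4: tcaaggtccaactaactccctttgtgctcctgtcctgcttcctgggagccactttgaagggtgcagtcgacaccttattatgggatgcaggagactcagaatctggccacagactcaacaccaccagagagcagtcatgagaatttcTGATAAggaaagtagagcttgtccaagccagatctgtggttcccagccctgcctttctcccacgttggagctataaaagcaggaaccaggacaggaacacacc
Ccl3: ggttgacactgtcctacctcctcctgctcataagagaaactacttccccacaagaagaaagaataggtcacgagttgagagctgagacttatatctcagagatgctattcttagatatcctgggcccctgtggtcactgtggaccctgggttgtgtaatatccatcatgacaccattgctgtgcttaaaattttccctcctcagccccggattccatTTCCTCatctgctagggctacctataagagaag
Wfdc17: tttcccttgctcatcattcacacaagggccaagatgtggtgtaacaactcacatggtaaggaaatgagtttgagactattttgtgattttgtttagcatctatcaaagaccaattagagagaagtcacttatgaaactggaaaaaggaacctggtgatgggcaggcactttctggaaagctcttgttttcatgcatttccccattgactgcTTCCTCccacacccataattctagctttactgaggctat

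The GATA letters began 93 and 77 bases before the start of Gp5, 46 bases before that of Cpa3 and 103 bases before that of Mcpt4. The PU.1 letters began 33 bases before the start of Ccl3 and 39 bases before that of Wfdc17, and they also stood, not in capitals, 47 bases before that of Gp5. In the GENCODE M21 annotation Wfdc17 begins at chr11:83703991, within the printed bases, so its letters precede only the RefSeq start. Across windows of 300 bases (250 before to 50 after the start), AGATAA or TGATAA was found in 10.7% of 169 promoters of genes higher in MPP2, in 14.2% of 169 promoters of genes higher in MPP3 and in 10.9% of 13537 promoters of all genes tested. GAGGAA was found in 27.2%, 39.6% and 27.1% of the same sets. TTGCNNAA, letters of C/EBP factors, was found in 7.10%, 11.2% and 8.84%, and CACCC, letters of Krüppel-like factors, in 55.6%, 65.7% and 63.3%. Among all 32851 promoters of the RefSeq table the shares were 18.6% for the GATA letters, 28.3% for GAGGAA, 10.8% for TTGCNNAA and 57.5% for CACCC. All motifs were read on both strands, genes with several starts count more than once, and 143 of the 188 genes higher in MPP2 and 112 of the 150 genes higher in MPP3 had an entry. These shares are descriptions without a test.

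Young MPP2 and Young MPP3 differed in 338 of 14154 genes, 2.39% of those tested. Of these, 188 genes (1.33%) were higher in MPP2, and among those that met the rule for naming the largest differences were those of Slamf1, the antigen of the gate, Mfsd2b, Gata1, Vwf, Aldh1a1 and Gp5. Another 150 genes (1.06%) were higher in MPP3, where by the same rule Mcpt4, Tpsb2, Cma1, Gzmb, Dntt and Cyp11a1 came first. Differences were mostly small, with a median absolute log2 fold change of 0.75 among called genes, and 88 of them reached 1. An unadjusted p under 0.05 was found for 1993 genes, and the median log2 fold change of all tested genes was -0.02. Leaving out Young MPP2 replicate 1, Young MPP2 replicate 2, Young MPP3 replicate 1 or Young MPP3 replicate 2 left 99, 95, 75 and 83 genes higher in MPP2 and 44, 52, 71 and 57 higher in MPP3.

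**Figure D1:**
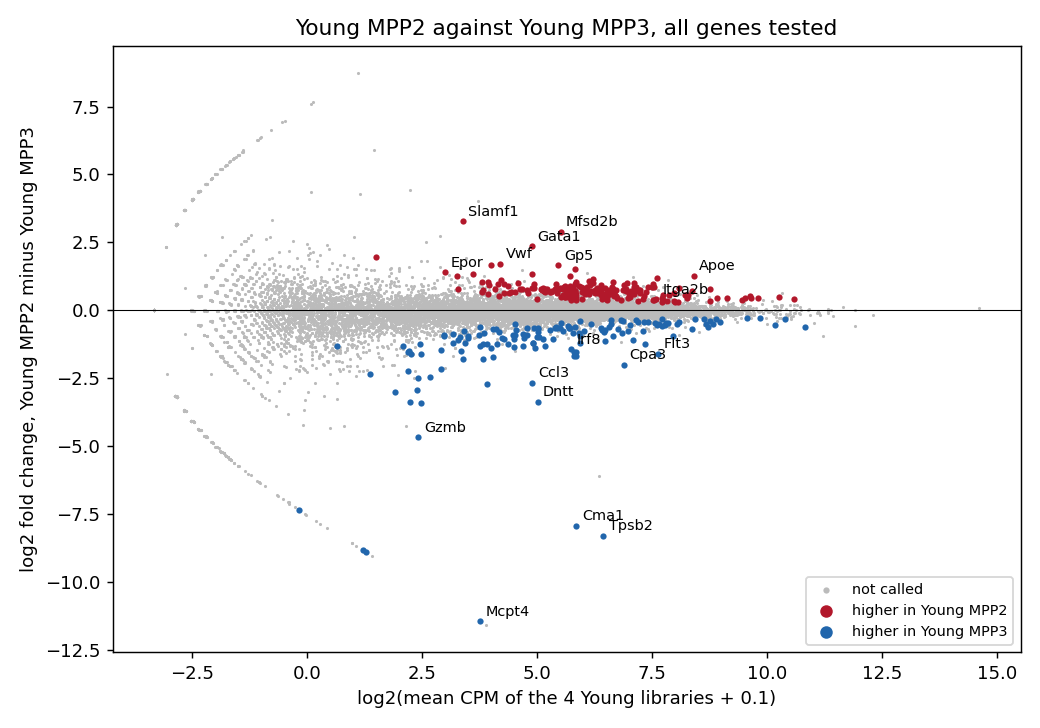
Each point is a gene, with the log2 of its mean CPM over the 4 Young libraries plus 0.1 on the x axis and the log2 fold change of Young MPP2 minus Young MPP3 on the y axis. Red points are the 188 genes higher in MPP2 and blue points the 150 genes higher in MPP3, and the fitted value of a gene at 0 in a whole fraction, such as Mcpt4, depends on the prior count and is no estimate of its size.

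The fractions were close neighbors. Over all genes tested, the root mean square difference between the mean log2 CPM of Young MPP2 and Young MPP3 was 0.49, the smallest of the 28 pairs of the 8 Young fractions and below the next pair, Young MPP1 and Young MPP2, at 0.65. The same measure between single duplicate libraries was 0.46 in Young MPP2 and 0.49 in Young MPP3, but it compares single libraries and so carries more counting noise than a difference of means.

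Erythroid and megakaryocytic transcription factors were higher in MPP2 for 4 of 16 measured members and higher in MPP3 for 1, with a median log2 fold change of 0.20. Counts of this and the following lists stand beside 1.33% of all genes tested called higher in MPP2 and 1.06% called higher in MPP3. Gata1 (chrX:7959260-7978071, minus strand, GENCODE M21 on GRCm38), the master factor of erythroid and megakaryocytic cells, was measured at 48.9 and 49.7 CPM in Young MPP2 and at 10.3 and 8.78 CPM in Young MPP3. Its duplicates were close, and the fractions did not overlap, as the rule for naming required. The log2 fold change was 2.35 (SE 0.18, edgeR adjusted p = 4.17e-08). Gfi1b, a repressor that acts with GATA1, stood at 107 and 110 CPM against 57.1 and 66.1 CPM (log2 fold change 0.80, SE 0.14, edgeR adjusted p = 0.00105). Sox6, which acts in erythroid maturation, was higher in MPP2 by 0.80 on the log2 scale. Klf1, the erythroid Krüppel-like factor, did not pass the test at 16.5 and 16.6 CPM against 10.8 and 11.2 CPM (edgeR adjusted p = 0.190), nor did Gata2 (0.55, adjusted p = 0.161). Zfpm1, which encodes FOG1, had 319 and 311 CPM in MPP2 but 196 and 90.0 CPM in the MPP3 duplicates and did not pass (adjusted p = 0.0777). Lmo2, a bridging protein of the same complexes, was the member higher in MPP3, by the small value of -0.27. With any of the 4 libraries left out, 1 to 3 members were called higher in MPP2 and 0 in MPP3. Sox6 and Lmo2 lost their call in all 4 such fits and Gfi1b in 2.

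Most megakaryocyte and platelet genes did not pass the test. The share called higher in MPP2 was still above the 1.33% of all genes tested. Of 21 tested members, 18 had a positive log2 fold change with a median of 1.06, 4 were called higher in MPP2 (Gp9, Itga2b, Gp5 and Vwf) and 0 were called higher in MPP3. Gp5 (chr16:30307685-30310779, minus strand), a subunit of the receptor for von Willebrand factor, was measured at 63.8 and 70.7 CPM in MPP2 and at 21.6 and 20.4 CPM in MPP3 (log2 fold change 1.66, SE 0.16, edgeR adjusted p = 1.02e-06). Vwf, which encodes von Willebrand factor, had 28.8 and 27.5 CPM against 8.01 and 9.03 CPM, a log2 fold change of 1.71. Itga2b (chr11:102453297-102470122, minus strand), the gene of integrin αIIb (CD41), had 269 and 274 CPM in MPP2 and 115 and 120 CPM in MPP3. Each of these genes was lower in both MPP3 libraries than in either MPP2 library, which the rule for naming required of Gp5 and Vwf. Members that did not pass included Pf4 (platelet factor 4) at 34.5 and 36.4 CPM against 15.6 and 17.98 CPM. Each fit without a library called 3 members, Gp9 being lost in all 4, whereas a fit of the 4 libraries alone called 14 higher in MPP2 and 1 higher in MPP3.

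Genes of hemoglobin, heme synthesis and the red cell membrane mostly did not pass the test. Of 32 tested members, 1 was higher in MPP2, 0 were higher in MPP3 and the median log2 fold change was 0.03. With 1.33% of all genes tested higher in MPP2, these counts are no result about the list. The called member was Epor, the erythropoietin receptor, at 10.0 and 13.01 CPM against 4.45 and 4.19 CPM (log2 fold change 1.40, SE 0.28, edgeR adjusted p = 0.00392). Its call was lost in 3 of 4 fits without a library (adjusted p up to 0.0641). Enzymes of heme synthesis were nearly level, such as Fech, ferrochelatase, at 94.0 and 99.7 CPM against 94.1 and 93.8 CPM. The globin gene Hbb-bs had 58.5 and 0.151 CPM in the MPP2 duplicates and 64.3 and 48.4 CPM in those of MPP3, and its assignment against its near-identical copy Hbb-bt is uncertain.

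Other genes among the 12 largest differences toward MPP2 were of mixed function. Mfsd2b (chr12:4862440-4874359, minus strand), the exporter of sphingosine-1-phosphate in red cells and platelets, had 80.3 and 80.4 CPM in MPP2 and 10.3 and 11.2 CPM in MPP3 (log2 fold change 2.89, SE 0.30, edgeR adjusted p = 4.14e-06). Tgfbr3, a co-receptor of TGF-β, had 93.3 and 76.3 CPM against 29.3 and 28.7 CPM. Apoe, apolipoprotein E, had 460 and 502 CPM against 187 and 207 CPM. In each case the groups stood well apart relative to their duplicates, but the rule for naming already required that they not overlap. Aldh1a1, a retinaldehyde dehydrogenase, was higher by 1.66, Tuba8, an α-tubulin, by 1.35, Acp5, the tartrate-resistant acid phosphatase, by 1.34, and Aspm, a protein of the spindle poles, by 1.26 on the log2 scale. Acp5 was called in 3 of 4 fits that left out a library and reached an adjusted p of 0.0196 without Young MPP3 replicate 1.

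**Figure D2:**
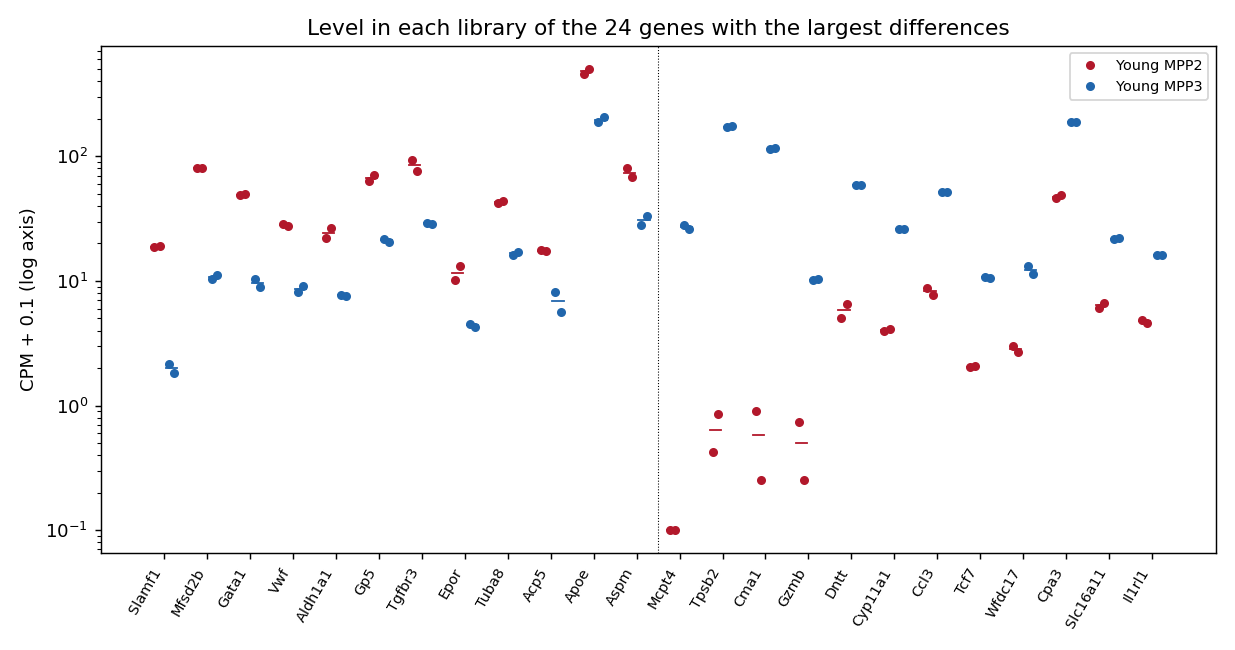
CPM plus 0.1 on a log axis in each of the 4 Young libraries for the 24 genes with the largest differences, 12 in each direction, with a short line at the mean of the duplicates. The 12 genes on the left are higher in Young MPP2 (red) and the 12 on the right in Young MPP3 (blue), and duplicates lie close together except where MPP2 levels are under 1 CPM.

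Of the 18 gene lists, those of the cell cycle held the most genes higher in MPP2. Of 52 genes of the G2 and M phases, 37 were higher in MPP2 and 0 in MPP3, all 52 had a positive log2 fold change and the median was 0.72. Of 44 genes of the S phase, 12 were higher in MPP2 and 0 in MPP3, 43 were positive and the median was 0.25. With any of the 4 libraries left out, 21 to 30 genes of the G2 and M phases and 3 to 5 of the S phase were called higher in MPP2. Nusap1, which binds spindle microtubules, was measured at 185 and 185 CPM in MPP2 and at 84.9 and 95.5 CPM in MPP3 (log2 fold change 1.02, edgeR adjusted p = 1.81e-06). Top2a, the topoisomerase that separates chromosomes, had 556 and 551 CPM against 306 and 329 CPM, and Rrm1, a subunit of ribonucleotide reductase, 651 and 645 CPM against 459 and 479 CPM. The differences were small, but for these 3 genes the duplicates of each fraction lay nearer to each other than to the other fraction. Together the lists supplied 49 of the 188 genes higher in MPP2 and 0 of the 150 higher in MPP3.

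Myeloid transcription factors were higher in MPP3 for 6 of 12 members and higher in MPP2 for 0, with a median log2 fold change of -0.78. Irf8 (chr8:120736358-120756694, plus strand), which directs monocyte and dendritic cell fate, was measured at 29.3 and 28.8 CPM in Young MPP2 and at 76.1 and 78.6 CPM in Young MPP3 (log2 fold change -1.43, SE 0.13, edgeR adjusted p = 6.66e-07). Cebpa, required for the granulocyte lineage, had 20.5 and 22.3 CPM against 42.8 and 41.8 CPM (log2 fold change -0.998), a call lost in 1 of 4 fits without a library. Spi1, which encodes PU.1, had 138 and 139 CPM against 173 and 195 CPM (-0.43, adjusted p = 0.00326), a call lost in 3 of 4 fits without a library (adjusted p up to 0.102) and with the 16 Young libraries alone (0.0228). Id2, an inhibitor of helix-loop-helix factors, Gfi1, a repressor in granulocyte precursors, and Cebpd were the other called members, at -1.23, -1.19 and -0.90. Without a library 2 to 5 members were called, and Irf8 and Id2 in all 4 such fits. Cebpb did not pass, with 15.1 and 125 CPM in the MPP2 duplicates against 160 and 156 CPM in MPP3.

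Most granule and oxidase genes did not pass the test. The share called higher in MPP3 was still above the 1.06% of all genes tested. Among 26 tested neutrophil granule and oxidase genes, 25 had a negative log2 fold change with a median of -0.64, 5 were called higher in MPP3 (Ncf1, Plac8, Ncf4, Igsf6 and Serpinb1a) and 0 higher in MPP2. Without a library 0 to 4 members were called, with Serpinb1a lost in 4 and Igsf6 in 3 of 4 fits, but 9 were called with the 16 Young libraries and 16 with the 4 libraries alone. Mpo, myeloperoxidase, had 1620 and 1658 CPM in MPP2 and 3032 and 3259 CPM in MPP3 but did not pass (edgeR adjusted p = 0.213), while Ncf1, a subunit of the phagocyte oxidase, did at 37.6 and 41.4 CPM against 67.2 and 72.5 CPM. Of 21 monocyte, macrophage and dendritic cell genes, 9 were higher in MPP3 and 0 in MPP2, with a median of -0.72, among them Ly6c2 at 56.0 and 56.6 CPM against 121 and 125 CPM and Cx3cr1, the fractalkine receptor, at -1.49. Without a library 2 to 3 members were called, Cx3cr1 in 0 of 4 fits (adjusted p up to 0.146), and the DESeq2 Wald test called 15. All 8 genes of MHC class II presentation were negative with a median of -0.42, and 0 were called (1 with the 16 Young libraries). With 1.06% of all genes tested higher in MPP3, 0 of 8 called is no result about this list.

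Some lymphoid priming genes were higher in MPP3. Of 18 tested members, 6 were higher in MPP3 (among them Dntt, Tcf7, Satb1, Flt3 and Igll1), 0 were higher in MPP2 and the median log2 fold change was -1.02. Dntt (chr19:41029275-41059525, plus strand), the terminal transferase of lymphoid precursors, was measured at 4.98 and 6.43 CPM in MPP2 and at 58.4 and 59.0 CPM in MPP3 (log2 fold change -3.38, SE 0.13, edgeR adjusted p = 4.07e-11). Satb1, a chromatin organizer of lymphoid cells, had 26.6 and 28.2 CPM against 85.0 and 91.0 CPM. Tcf7, a T-lineage factor, had 1.93 and 1.97 CPM against 10.7 and 10.5 CPM, and its adjusted p of 0.00206 rose to as much as 0.0466 when a library was left out. The Dntt level of MPP3 lay between those of MPP2 and of MPP4, at 734 and 779 CPM in Young MPP4, and Dntt was listed at 0 in both Young HSC libraries. Igll1 stood at the edge of the test (adjusted p = 0.00986), and each fit without a library called 3 members of the list.

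Mast cell protease genes had the largest differences among the 24 named genes. Of 20 tested basophil, mast cell and eosinophil genes, 8 were higher in MPP3 (Mcpt4, Tpsb2, Cma1, Gzmb, Fcer1a, Cpa3, Il1rl1 and Prss34) and 0 were higher in MPP2, with a median log2 fold change of -1.05. Without a library 4 to 6 members were called. Mcpt4 (chr14:56059629-56062313, minus strand), a chymase, had 0 counts in both Young MPP2 libraries and 27.8 and 26.2 CPM in Young MPP3, which is at least 115-fold higher in MPP3 against a floor of 3 counts per library. Tpsb2 (chr17:25366305-25369098, plus strand), a tryptase, had 0.321 and 0.756 CPM against 172 and 174 CPM (log2 fold change -8.30, SE 0.39, edgeR adjusted p = 4.66e-07). Cma1 (chr14:55941451-55944675, minus strand), another mast cell protease, had 0.803 and 0.151 CPM against 114 and 117 CPM (-7.93, edgeR adjusted p = 1.27e-05), but the DESeq2 Wald test gave it an adjusted p of 0.747. Both MPP3 duplicates carried these transcripts at nearly the same level. The genes belong to families of related genes, so that part of their counts could belong to a relative, which was not measured.

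Mcpt4, Tpsb2 and Cma1 were low or at 0 outside MPP3 in the 16 groups of the series. Mcpt4 had 0 counts in 26 of the 32 libraries and reached 0.986 CPM outside MPP3, Tpsb2 reached at most 4.72 CPM and Cma1 at most 4.23 CPM there, all in Aged MPP2 replicate 1. Other mast cell genes were shared more widely. Cpa3 (chr3:20215620-20242181, minus strand), carboxypeptidase A3, was measured at 46.1 and 48.6 CPM in Young MPP2 and at 189 and 189 CPM in Young MPP3 (log2 fold change -2.01, SE 0.11, edgeR adjusted p = 8.79e-11), and at a mean of 122 CPM in Young GMPs. Gzmb, granzyme B, had 0.642 and 0.151 CPM against 10.1 and 10.2 CPM, and Il1rl1, the interleukin-33 receptor, 4.73 and 4.54 CPM against 15.9 and 16.1 CPM. Gzmb lost its call in 1 of 4 fits without a library, and Il1rl1 and Prss34, a basophil protease, lost theirs in all 4. Ms4a2, the β chain of the IgE receptor, did not pass at 8.35 and 8.02 CPM against 9.86 and 10.2 CPM. Fcer1a, the α chain of this receptor, did at 1.36 and 1.06 CPM against 9.71 and 8.54 CPM, a call lost in 1 of 4 fits without a library.

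**Figure D3:**
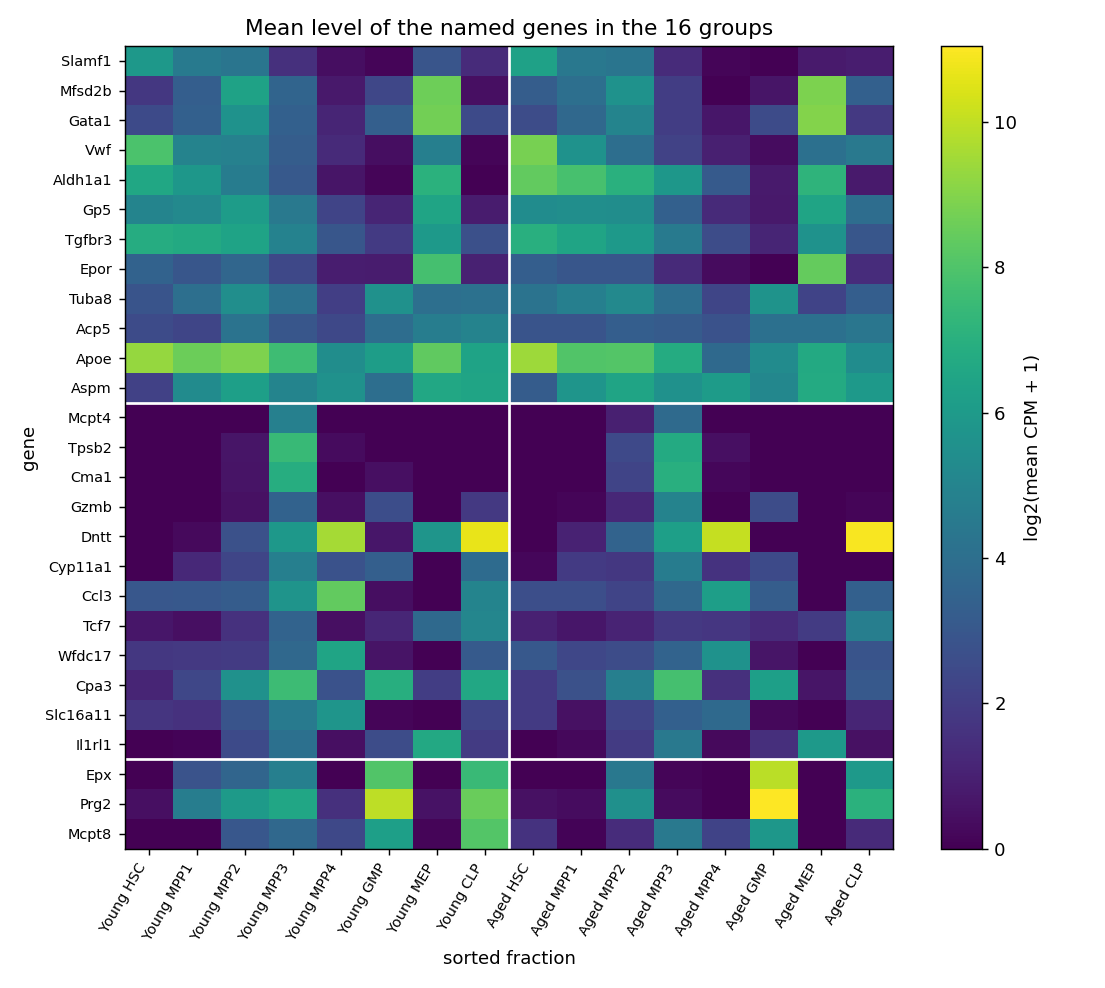
Heat map of log2 of the mean CPM plus 1 for 27 genes (rows) in the 16 groups (columns, Young on the left and Aged on the right). The top block holds the 12 genes higher in Young MPP2, the middle block the 12 higher in Young MPP3 and the bottom block Epx, Prg2 and Mcpt8, and Mcpt4, Tpsb2 and Cma1 are bright only in the MPP3 columns.

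Further genes with large differences toward MPP3 were Ccl3, Cyp11a1, Wfdc17 and Slc16a11. Ccl3 (chr11:83647844-83649355, minus strand), the chemokine MIP-1α, was measured at 8.67 and 7.64 CPM in MPP2 and at 51.3 and 51.4 CPM in MPP3 (log2 fold change -2.67, SE 0.15, edgeR adjusted p = 7.75e-10). Cyp11a1, the side-chain cleavage enzyme of steroid synthesis, had 3.85 and 4.01 CPM against 25.9 and 25.9 CPM. Wfdc17 had 2.89 and 2.57 CPM against 12.97 and 11.2 CPM, and Slc16a11, a monocarboxylate transporter, differed by -1.80 and lost its call in 2 of 4 fits without a library. Each was higher in both MPP3 libraries than in either MPP2 library, which the rule for naming these genes required.

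Of 20 receptors for hematopoietic cytokines, 1 was higher in MPP2 and 5 were higher in MPP3, with a median log2 fold change of -0.49. Epor was the receptor higher in MPP2. Il1rl1, Flt3, Il6ra, Il1r1 and Csf3r, receptors for interleukin-33, Flt3 ligand, interleukin-6, interleukin-1 and G-CSF, were higher in MPP3. Il1r1 had 27.3 and 25.8 CPM against 52.9 and 56.1 CPM, and Csf3r 166 and 168 CPM against 222 and 249 CPM. Without a library 1 to 2 receptors were called higher in MPP3, with Il1rl1 and Il1r1 lost in 4 and Il6ra and Csf3r in 3 of 4 fits and Flt3 in 0. Csf1r, the receptor of M-CSF, had 20.9 and 21.7 CPM against 33.6 and 35.9 CPM and did not pass (edgeR adjusted p = 0.0287).

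Of 20 stem cell genes, 0 were called in either direction by edgeR (adjusted p under 0.01) and the median log2 fold change was 0.13. With 2.39% of all genes tested called in either direction, 0 of 20 is no result about this list. Other settings did call members: 2 higher in MPP2 and 3 in MPP3 with the 4 libraries alone, 3 in MPP3 by DESeq2 and 1 in MPP3 with the 16 Young libraries. Tek, the angiopoietin receptor, had 73.8 and 74.1 CPM in MPP2 and 40.5 and 39.7 CPM in MPP3 without passing (adjusted p = 0.269), and Mecom, a factor of stem cell maintenance, had 81.4 and 78.7 CPM against 74.4 and 76.4 CPM.

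**Figure D4:**
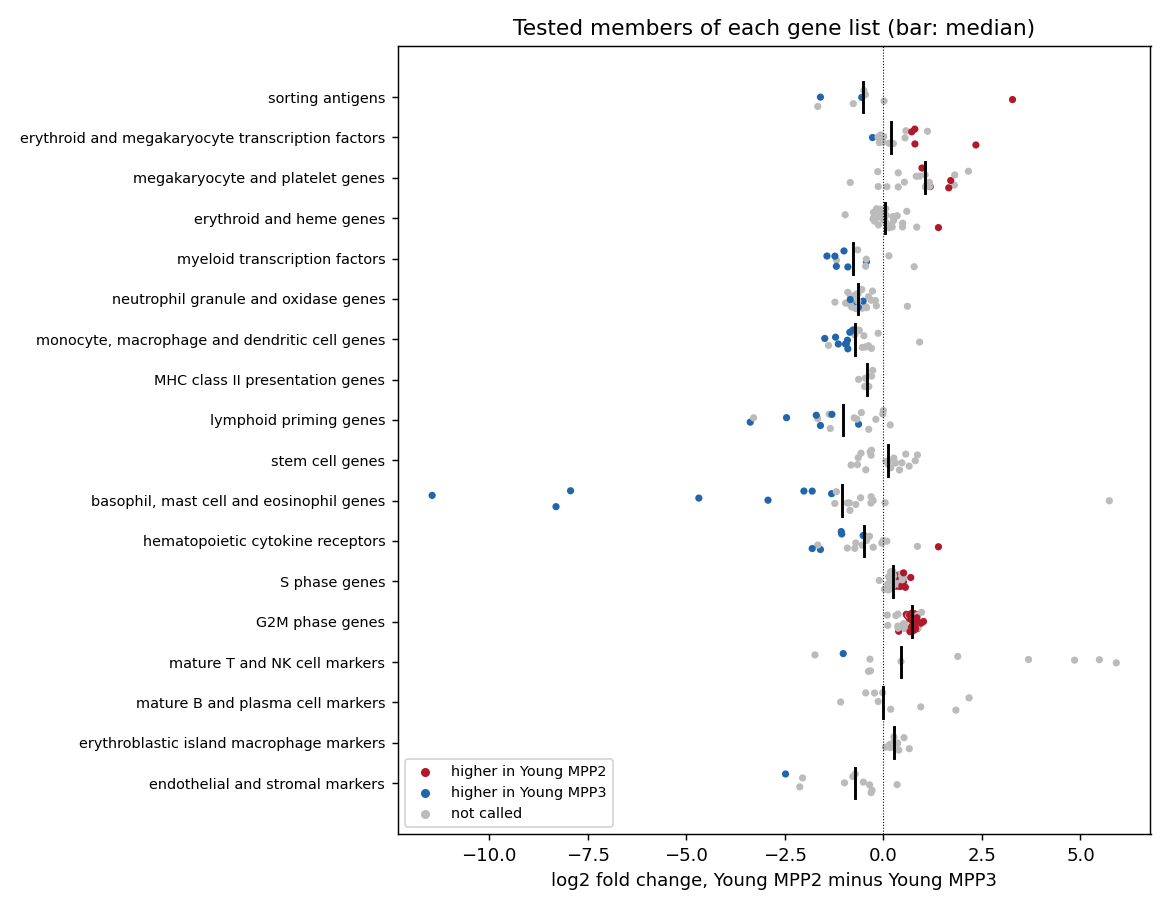
Log2 fold change of Young MPP2 minus Young MPP3 (x axis) for the tested members of the 18 gene lists (rows), with a black bar at the median of each list. Red points are members higher in MPP2, blue points members higher in MPP3 and grey points did not pass, and red points gather in the G2M phase list while blue points reach furthest in the basophil, mast cell and eosinophil list.

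Markers of other cell types were read for RNA from cells outside the gates. Summed over the erythroblastic island macrophage list, levels were 327 and 329 CPM in MPP2 and 262 and 271 CPM in MPP3, all 12 members were positive and 0 were called. The endothelial and stromal list summed to 179 and 171 CPM against 224 and 220 CPM, with Kdr, a VEGF receptor, called higher in MPP3 (2.25 and 0.983 against 9.56 and 8.21 CPM) and not in any fit that left out a library. Mature T and NK cell markers summed to 27.7 and 31.4 CPM against 47.3 and 48.9 CPM, mostly Lck, a kinase of T cells, which was called higher in MPP3 but in 0 of 4 fits without a library (adjusted p up to 0.0482), while Cd3d, Cd3e and Cd3g each stayed under 1 CPM. Mature B and plasma cell markers summed to 82.9 and 88.8 CPM against 107 and 105 CPM with 0 called. The part of such cells in the differences above was not tested.

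The same contrast in Aged mice used 4 other libraries. There, 190 genes (1.34%) were called, 88 higher in Aged MPP2 (0.622%) and 102 higher in Aged MPP3 (0.721%). Of the 188 genes higher in Young MPP2, 186 had the same sign in Aged cells, where 44.8% of all genes tested were positive, and 61 were called higher in Aged MPP2, which is 32.4% of the Young genes and 69.3% of the Aged genes. Of the 150 genes higher in Young MPP3, 142 had the same sign and 79 were called higher in Aged MPP3, 52.7% of the Young and 77.5% of the Aged genes. In each direction 0 genes were called the opposite way.

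Gata1 was measured at 32.6 and 28.2 CPM in Aged MPP2 and at 3.59 and 2.40 CPM in Aged MPP3 (log2 fold change 3.32, edgeR adjusted p = 1.73e-09), and Gp5 at 44.9 and 39.6 CPM against 9.86 and 9.15 CPM (2.14). Dntt was again lower in MPP2, at 10.1 and 10.97 CPM against 74.5 and 75.0 CPM (-2.84). Tpsb2 had 4.72 and 4.13 CPM in Aged MPP2 and 101 and 113 CPM in Aged MPP3 (-4.61, adjusted p = 6.70e-06). These genes kept their direction at 20 months. Acp5 did not pass in Aged cells (0.14, adjusted p = 0.935), nor did Tcf7 (-1.12, adjusted p = 0.424). Among list members, the S phase genes had 0 called in Aged cells with a median of -0.01, the G2M genes 15 higher in Aged MPP2 with a median of 0.47, and the neutrophil granule and oxidase genes a median of 0.07 with 3 higher in Aged MPP3. Whether these list medians differed between ages was not tested.

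**Figure D5:**
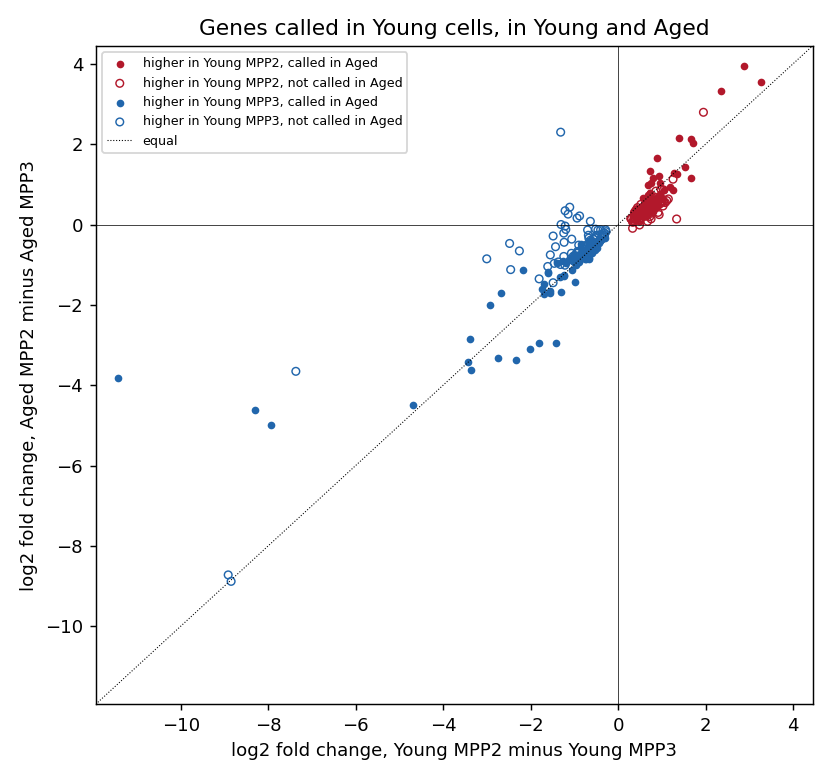
Each point is 1 of the 338 genes called in Young cells, with the log2 fold change of MPP2 minus MPP3 in Young cells on the x axis and in Aged cells on the y axis. Filled points were also called in Aged cells (61 red, 79 blue), open points were not, and the dotted line marks equal differences.

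The interaction, which compares the difference of MPP2 minus MPP3 between the Young and Aged libraries, was called for 4 genes (0.0283%). Of these, 2 had a more positive and 2 a more negative difference in Young cells (0.0141% each), while 429 genes had an unadjusted p under 0.05. All 4 were genes of the basophil, mast cell and eosinophil list. Prg2, the major basic protein of eosinophils, was measured at 61.0 and 65.4 CPM in Young MPP2 and at 96.4 and 89.9 CPM in Young MPP3, but at 45.3 and 46.5 CPM in Aged MPP2 and at 0.276 and 0.225 CPM in Aged MPP3. Epx, eosinophil peroxidase, had 11.96 and 10.7 CPM against 24.98 and 27.5 CPM in Young and 21.3 and 19.7 CPM against 0.207 and 0 CPM in Aged cells. The Young libraries held these transcripts in both fractions, whereas among Aged libraries MPP3 was at or under the floor of 3 counts for Epx. The difference of the log2 fold changes, Young minus Aged, was -8.02 for Prg2 (edgeR adjusted p = 2.13e-05) and -8.67 for Epx (adjusted p = 0.00138), values that depend on the prior count because Aged MPP3 was so low. Cpa3 and Mcpt8, a basophil protease, differed in the other direction, by 1.08 (adjusted p = 0.00180) and 2.80 (adjusted p = 0.00349). Mcpt8 had 6.42 and 7.49 CPM against 13.6 and 11.4 CPM in Young and 1.69 and 1.63 CPM against 20.9 and 20.9 CPM in Aged cells. Without a library the adjusted p rose to as much as 0.0734 for Mcpt8, 0.0282 for Cpa3 and 0.0175 for Epx.

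The genes called between MPP2 and MPP3 were then placed along the split of the restricted progenitors, in 4 libraries that the comparison does not use. Between Young MEPs and Young GMPs 7145 genes (50.5%) were called, 3194 higher in MEPs (22.6%) and 3951 higher in GMPs (27.9%). Of the 188 genes higher in MPP2, 140 (74.5%) were higher in MEPs and 16 (8.51%) in GMPs. Of the 150 genes higher in MPP3, 113 (75.3%) were higher in GMPs and 17 (11.3%) in MEPs. Outside the S and G2M phase lists, 99 of the remaining 139 genes higher in MPP2 were higher in MEPs and 14 in GMPs. Gata1 stood at a mean of 412 CPM in Young MEPs and 9.14 CPM in Young GMPs, and Mfsd2b at 389 and 4.10 CPM. Irf8 had a mean of 896 CPM in Young GMPs and 22.4 CPM in Young MEPs. Exceptions included Tuba8, higher in MPP2 and in GMPs (MEP minus GMP -1.84), and Dntt, Il1rl1 and Tcf7, higher in MPP3 and in MEPs. Dntt stood at 52.8 and 53.1 CPM in the Young MEP libraries.

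HSCs and MPP4 differ in the CD150 gate as MPP2 and MPP3 do, but also in the gates for CD34, CD48 and Flt3. Between HSCs and MPP4 of Young mice 4898 genes (34.6%) were called, 2278 higher in HSCs (16.1%) and 2620 higher in MPP4 (18.5%). Of the 188 genes higher in MPP2, 30 (15.96%) were higher in HSCs and 152 (80.9%) in MPP4. Of the 150 genes higher in MPP3, 13 (8.67%) were higher in HSCs and 103 (68.7%) in MPP4. On both sides the larger number was higher in MPP4, but with a log2 fold change of 1 in size required as well the genes higher in MPP2 split into 10 higher in HSCs and 9 in MPP4. Of the 49 members of the S and G2M phase lists among the genes higher in MPP2, 48 were higher in MPP4 and 0 in HSCs, and of the other 139 genes 104 were higher in MPP4 and 30 in HSCs. Vwf, Tgfbr3 and Apoe were among those higher in HSCs. Vwf stood at a mean of 241 CPM in Young HSCs and 1.51 CPM in Young MPP4, and Apoe at 632 and 42.0 CPM. Slamf1 was also higher in HSCs, but it encodes CD150, an antigen of these gates too.

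Among the other 6 Young fractions, the highest mean level was found in MEPs for 103 (54.8%) of the genes higher in MPP2 and for 4 (2.67%) of those higher in MPP3, against 24.01% of all genes tested. GMPs held the highest level for 3 (1.596%) and 44 (29.3%), against 9.98% of all genes, and MPP4 for 2 (1.06%) and 37 (24.7%), against 10.3%. Progenitors of lymphoid cells (CLPs) held it for 62 (33.0%) and 49 (32.7%), against 16.9%, and HSCs for 14 (7.45%) and 15 (10.0%), against 27.1%. Genes higher in MPP2 therefore had their highest level mostly in MEPs and CLPs, and genes higher in MPP3 mostly in CLPs, GMPs and MPP4.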

How the data were processed

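RNA was measured in 32 libraries of 8 sorted fractions at 2 ages, with 2 libraries per group. Per the labels and the study's methods, the authors amplified cDNA with a SMARTer kit for low input, sequenced single reads without molecular identifiers, aligned them to mm10 with TopHat2 2.0.13 and Bowtie2 2.1.0 (versions from the submitters' processing notes) and counted genes with StringTie. Raw counts were deposited as whole numbers. The use of strand was not stated, so reads of overlapping or antisense genes cannot be told apart. A deposited table of normalized values and the authors' 8 tables of DESeq2 comparisons of Aged with Young cells (fold changes and p-values) were not used. Of 24421 gene names, 27 had been turned into dates; they held 0.188% of counts, stayed in the fit and are not named.

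Counts were fitted with edgeR 4.0.16 in R 4.3.3 (quasi-likelihood F-test, TMM factors 0.807 to 1.11, filterByExpr) on all 32 libraries with 1 mean for each of 16 groups and 16 residual degrees of freedom. The spread they shared was a dispersion of 0.0127, or a coefficient of variation of 0.113. The 5 contrasts were two-sided with Benjamini-Hochberg adjustment over all 14154 genes within each, called at 0.01, the level of the study. SEs are those implied by the F statistic. The fit was also run on counts simulated with the spread estimated from these data, with changes put only into well-counted genes. That run checks the code and says nothing about genes at low counts. Named genes are the 12 with the largest difference in each direction among called genes whose libraries did not overlap and whose higher group had a mean of at least 10 CPM (without Gm, Rik and date names), the interaction genes by the same rule, and members of 18 gene lists, of which some are not reported here by name. The comparison, the lists and the tests were chosen with earlier results of these data known. The median of the basophil, mast cell and eosinophil list keeps its rank position when Mcpt4 and Ear6, at 0 in a fraction, are set to their bounds. In the mature T and NK cell list Cd3d, Cd3g, Cd8b1 and Cd5 were at 0 in Young MPP3. The median drawn for that list depends on the prior count and is no estimate. Positions are from GENCODE M21 (GRCm38) and promoters from RefSeq (GRCm38.p6). Alternatives were DESeq2 1.42.0 (size factors and Wald test), no filter, fewer libraries, a replicate block, other thresholds and leaving out each library.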

Additional observations from a re-analysis of the deposited data

Results flagged for a closer look

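For 4 of 14154 genes tested, the difference of MPP2 minus MPP3 was not the same in the Young and Aged libraries. This was a test of the interaction itself (edgeR quasi-likelihood F-test, Benjamini-Hochberg adjusted p under 0.01). The marrow of each age was described as pooled, so age cannot be told apart from the pool or the sort. For Epx the Young log2 fold change minus the Aged one was -8.67: both Aged MPP2 libraries were higher than both Aged MPP3 libraries, whereas both Young MPP2 libraries were lower than both Young MPP3 libraries. For Prg2 it was -8.02, with the same order of the libraries at each age. The Young differences of Epx (-1.23) and Prg2 (-0.58) did not pass the test on their own (adjusted p = 0.0918 and 0.449). For Cpa3 it was 1.08 and for Mcpt8 2.80, both lower in MPP2 at either age and by more in Aged cells. Without a library the calls of Cpa3, Mcpt8 and Epx were lost in 7, 8 and 3 of 8 fits, and that of Prg2 in 0 of 8. The fitted values of Epx and Prg2 rest on Aged MPP3 libraries with at most 4 counts and so depend on the prior count. Epx had 0 counts in Aged MPP3 replicate 2. Summed over both libraries, Epx had 594 counts in Aged MPP2 and 3 in Aged MPP3, a ratio of 190.2 after scaling to the library totals (95% exact Clopper-Pearson interval 64.8 to 925.1, counting error only).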

How the results depend on the processing

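Scaling by DESeq2 size factors and no filter on low counts left each count of genes within 1.5 times. A fit of the 16 Young libraries did the same for the counts over all genes that need no Aged library. Counts within single lists moved more in that fit, such as those of the granule and oxidase, MHC class II and stem cell lists above. With a replicate block the counts between Young MPP2 and Young MPP3 were 188 and 152, and the numbers were taken not to pair the samples, because the deviations of same-numbered libraries correlated by 0.0755 (Young) and 0.0128 (Aged). Among 111 named genes and list members that were called, 0 changed sign under any alternative. As these genes were picked by their calls in the same libraries, an unchanged sign says little about how firm they are. With a replicate block 2 lost their call (Sox6 and Igll1), with no filter 1 (Igll1), with DESeq2 1 (Cma1), with the 4 libraries of the contrast alone 8, with the 16 young libraries 18, 70 where a log2 fold change of 1 in size was also required, and 45, 47, 50 and 44 without Young MPP2 replicate 1, Young MPP2 replicate 2, Young MPP3 replicate 1 and Young MPP3 replicate 2. The cause was not tested.

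At an adjusted p under 0.05, genes higher in Young MPP2 and MPP3 numbered 306 and 315, in Aged MPP2 and MPP3 191 and 197, and the interaction had 8 more negative in Young. Of genes higher in Young MPP2, 124 were then higher in Aged MPP2, 232 in MEPs, 30 in GMPs and 75 in HSCs. Of genes higher in Young MPP3, 1 was higher in Aged MPP2, 142 in Aged MPP3, 36 in MEPs, 238 in GMPs, 45 in HSCs and 200 in MPP4.

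Requiring a log2 fold change of 1 in size as well, 24 and 64 genes were higher in Young MPP2 and MPP3, 36 and 38 in Aged MPP2 and MPP3, 1526 and 2594 in MEPs and GMPs and 1111 and 1031 in HSCs and MPP4. Of those higher in Young MPP2, 10 were higher in Aged MPP2, 19 in MEPs, 1 in GMPs, 10 in HSCs and 9 in MPP4. Of those higher in Young MPP3, 27 were higher in Aged MPP3, 8 in MEPs, 39 in GMPs, 4 in HSCs and 40 in MPP4. List members higher in Young MPP2 and MPP3 numbered 7 and 23.

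With only the libraries of each contrast, 292 and 255 genes were higher in Young MPP2 and MPP3, 52 in Aged MPP3, 1844 and 2326 in MEPs and GMPs, and the interaction had 4 more positive and 19 more negative in Young. Of genes higher in Young MPP2, 1 was higher in Aged MPP3 and 71 in HSCs. Of genes higher in Young MPP3, 3 were higher in Aged MPP2, 43 in Aged MPP3 and 25 in HSCs, and 65 list members were higher in Young MPP3.

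The DESeq2 Wald test called 318 and 368 genes higher in Young MPP2 and MPP3, 238 and 208 in Aged MPP2 and MPP3, and an interaction of 7 more positive and 23 more negative in Young. Among genes higher in Young MPP2, 153 were higher in Aged MPP2, 242 in MEPs, 28 in GMPs and 86 in HSCs. Among genes higher in Young MPP3, 2 were higher in Aged MPP2, 158 in Aged MPP3, 42 in MEPs, 270 in GMPs, 52 in HSCs and 226 in MPP4.

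Leaving out each library in turn, where the lone sample is assumed to vary like the other groups, gave 75 to 99 genes higher in Young MPP2 (lowest without Young MPP3 replicate 1) and 44 to 71 higher in Young MPP3 (lowest without Young MPP2 replicate 1). It gave 32 to 39 and 31 to 57 in Aged MPP2 and MPP3, 2883 to 3406 and 3315 to 3698 in MEPs and GMPs, 1623 to 1916 and 1994 to 2171 in HSCs and MPP4, and interactions of 0 to 2 more positive and 1 to 3 more negative. Among those higher in Young MPP2, 20 to 49 were higher in Aged MPP2, 0 to 0 in Aged MPP3, 63 to 177 in MEPs, 2 to 19 in GMPs, 12 to 39 in HSCs and 58 to 163 in MPP4. Among those higher in Young MPP3, 0 to 0 were higher in Aged MPP2, 26 to 45 in Aged MPP3, 5 to 22 in MEPs, 31 to 149 in GMPs, 4 to 12 in HSCs and 30 to 95 in MPP4. List members numbered 29 to 43 in Young MPP2 and 13 to 21 in Young MPP3.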

Other observations

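Genes higher in Young MPP3 stood close together at 2 loci, which were chosen after their values were seen. Both ends of each window were set at genes called higher in MPP3, so the counts are no result about the loci. Over all genes tested, 1.06% were higher in MPP3. Between Ccl9 and Wfdc17 (chr11:83572919-83706268, GRCm38), 5 of 12 annotated genes were tested, of which 4 were higher in MPP3 and 0 in MPP2. Ccl9, a chemokine, had 28.8 and 30.02 CPM in Young MPP2 and 89.8 and 80.9 CPM in Young MPP3, and Ccl4, the chemokine MIP-1β, 26.9 and 26.6 CPM against 83.0 and 87.3 CPM. Both were also lower in Aged MPP2 (log2 fold change -1.67 for Ccl9 and -1.49 for Ccl4). Ccl6, which lies between them, did not pass, with 4.09 and 4.84 CPM against 8.08 and 5.42 CPM. Between Cma1 and Gzmb (chr14:55941451-56262260), 7 of 26 annotated genes were tested, of which 3 were higher in MPP3 (Cma1, Mcpt4 and Gzmb) and 0 in MPP2. Ctsg, the cathepsin G gene at the same locus, had 51.7 and 55.4 CPM against 97.5 and 91.4 CPM and did not pass (edgeR adjusted p = 0.0602).

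Other genes seen at or near 0 in MPP2 were likewise chosen after their values were seen. Mrgprb2, a receptor of connective tissue mast cells, had 0 counts in both Young MPP2 libraries and 66 and 49 counts in Young MPP3. Tpsg1, a tryptase gene, had 0 counts against 64 and 56 counts. Both had 0 counts in the Aged MPP2 libraries, where Aged MPP3 held 62 and 61 counts of Mrgprb2 and 56 and 54 counts of Tpsg1. Ccl2, a chemokine of monocytes, had 0.803 and 1.06 CPM against 10.5 and 9.52 CPM (log2 fold change -3.42, edgeR adjusted p = 0.000639).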
